A study of Mus musculus with 12 samples.

Results

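Selenoproteins contain selenocysteine, an amino acid that carries selenium. The genes described here are 9 of them, Selenop, Selenow, Selenof, Selenos, Gpx1, Gpx3, Gpx4, Txnrd1 and Txnrd2, found by gene symbol among 19938 genes measured on Affymetrix arrays. All 9 were measured, and the mouse family as listed here has 24 genes, all measured. The genes were chosen by symbol, and where a gene had several probe sets, 1 was selected on its mean signal over all 12 arrays. That mattered only for Gpx4, whose chosen probe set averaged 9.61 and the other 9.59 on the log2 scale. RNA came from MIN6, an insulin-producing cell line derived from a mouse insulinoma and used in place of primary beta cells. The cells were transfected with siRNA against Hes3, which encodes a basic helix-loop-helix repressor, or with a scrambled siRNA, each at 2 µM, and were assayed 12 to 24 hours later. Defined Conditions (DC) were serum-free medium at 5% oxygen, and Classic Conditions (CC) were medium with serum at 20% oxygen, so serum and oxygen changed together and cannot be told apart. The groups were DC with Hes3 siRNA (4 arrays, numbered 1, 2, 5 and 7), DC with scrambled siRNA (4 arrays), CC with Hes3 siRNA (2 arrays) and CC with scrambled siRNA (2 arrays). All came from a single cell line, and the labels do not state how many experiments gave the samples. The p-values therefore measure only the spread between these samples, which may be technical.

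In a selenoprotein mRNA a UGA codon, normally a stop, is read as selenocysteine with the help of a hairpin called the SECIS element and the factors that bind it. Most family members are oxidoreductases: glutathione peroxidases remove peroxides, thioredoxin reductases keep thioredoxin reduced, and several selenoproteins sit in the endoplasmic reticulum (ER), where secreted proteins fold. Beta cells secrete large amounts of protein and are known for low levels of several hydrogen peroxide-removing enzymes.

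Hes3 mRNA showed no decrease under the Hes3 siRNA label. In DC it read 7.37, 7.36, 7.38 and 7.25 in the Hes3 siRNA arrays and 7.10, 7.24, 7.19 and 7.22 in the scrambled arrays (log2 fold change 0.15 ± 0.0768 SE, limma adjusted p = 0.114). In CC it read 7.22 and 7.23 in the Hes3 siRNA arrays and 7.23 and 6.82 in the scrambled arrays (0.20 ± 0.109 SE, limma adjusted p = 1). The sign turned in DC under quantile normalization (-0.03) and cyclic loess (-0.05), and in CC without CC scrambled array 2 (-0.006). Groups are therefore named by their labels. Array-wide signals differed as well: the SD over all genes was 1.76 to 1.80 in the DC Hes3 siRNA arrays, lowest in arrays 1 and 5, and 1.82 to 1.85 in the DC scrambled arrays. Genes in the dimmest of 4 equal parts by signal had a median log2 fold change of 0.15 between these groups, and those in the brightest part -0.15. Hes3 averaged 7.22 over the 12 arrays and lay in the second dimmest part, where the median was 0.21. Whether so dim a probe set can show a decrease was not tested. The 10 beta cell markers averaged 11.57 to 11.69 over the list in the DC Hes3 siRNA arrays and 11.74 to 11.80 in the DC scrambled arrays, and 4 of them fell while 1 rose. The 12 markers of other cell types averaged 8.16 to 8.29 in the DC Hes3 siRNA arrays and 7.97 to 8.05 in the DC scrambled arrays, with 8 of 12 past the test and higher. Of all genes, 18.3% fell and 28.9% rose there. The median beta cell marker (11.66) lay in the brightest part, where 40.9% of genes fell. The median marker of other cell types (7.11) lay in the second dimmest part, where 56.9% rose. The part of these differences in the results below was not tested. Among those 12, Gcg and Sst, the genes for glucagon and somatostatin, had high signals (means 11.9 and 11.5). Between DC and CC, Gcg was the only 1 of the 12 called lower. Its means were 11.56 and 12.62 with Hes3 siRNA, and 11.65 and 12.57 with scrambled siRNA. Of the 12, 6 rose between DC and CC with Hes3 siRNA (21.2% of all genes) and 0 with scrambled siRNA (3.09%). In bulk RNA, fewer cells of a type and less RNA per cell cannot be told apart.

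In the comparison of siRNA labels in DC, 3 of the 9 genes fell (Selenop, Gpx1 and Selenof) and 1 rose (Gpx3), at a limma adjusted p under 0.05. Of all 19938 genes, 18.3% were called lower and 28.9% higher there, 47.2% in all. In DC against CC with Hes3 siRNA, 5 of the 9 fell (Selenop, Selenos, Gpx1, Selenof and Txnrd1) and 1 rose (Gpx3), where 18.8% of all genes were lower and 21.2% higher, 40.1% in all. In DC against CC with scrambled siRNA, 2 of the 9 fell (Selenos and Txnrd1) and none rose, where 5.45% of all genes were lower and 3.09% higher, 8.54% in all. For the labels in CC, 0 of the 9 passed, as did 0 of all genes (0%), with 415 of 19938 at an unadjusted p under 0.05. The CC arrays of the labels overlapped for all 9, and were apart for 26.9% of all genes. Median log2 fold changes of the 9 genes and of all genes were -0.15 and 0.06 for the labels in DC, -0.44 and 0.09 for DC against CC with Hes3 siRNA, and -0.10 and 0.02 for DC against CC with scrambled siRNA. The DC comparisons share arrays, so their values are given side by side. Without DC Hes3 siRNA arrays 1 and 5, 1.66% of all genes were called between the labels in DC (1.41% lower), and of the 9 only Selenop and Gpx1 passed. Without them 5 of the 9 passed between DC and CC with Hes3 siRNA, all lower, where 18.2% of all genes were called (12.4% lower).

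**Figure D1:**
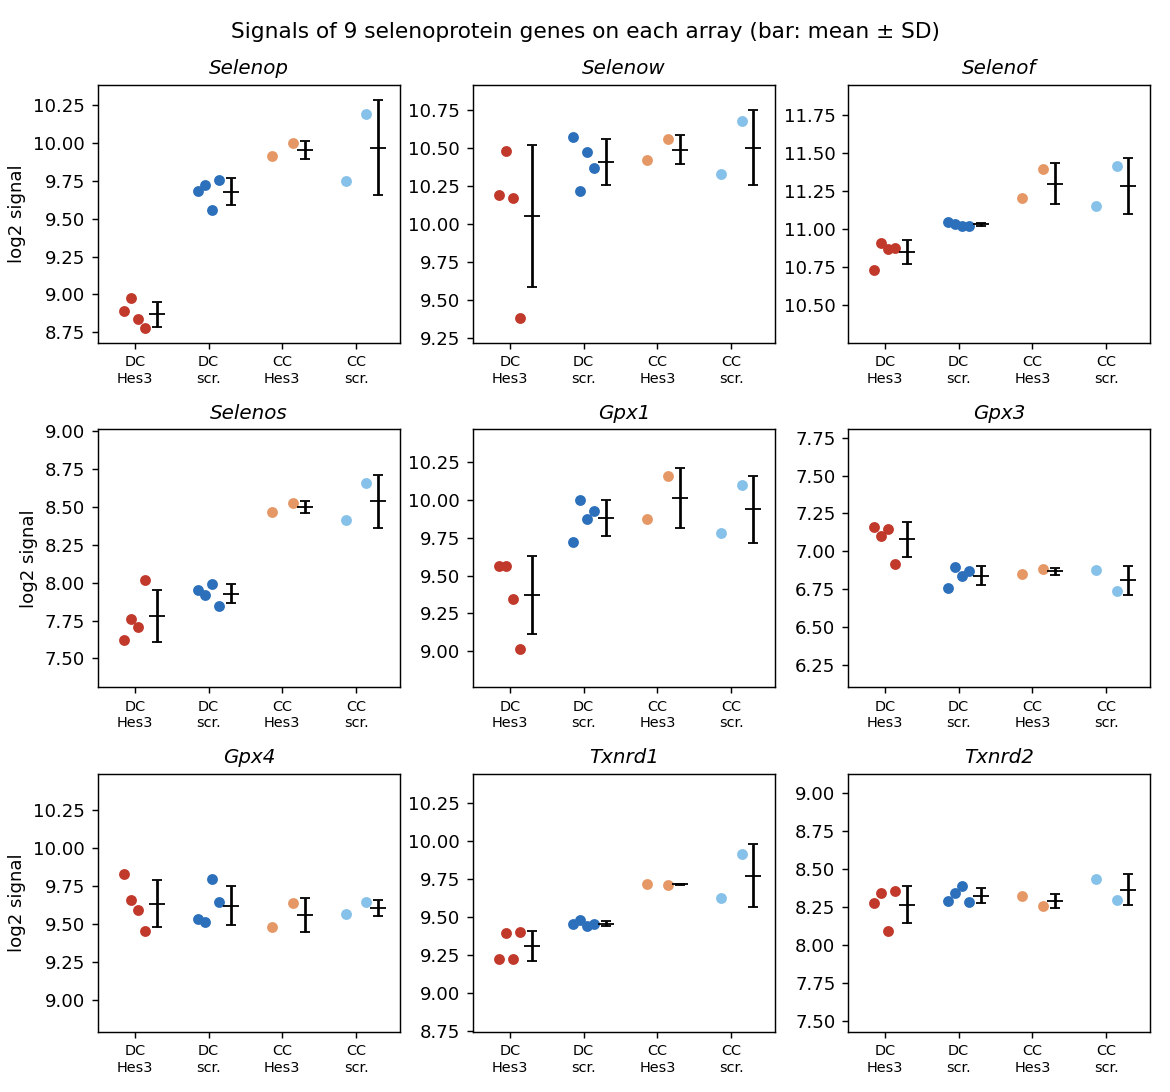
Log2 signal of the 9 genes on each of the 12 arrays, 1 panel per gene, by group from left to right: DC Hes3 siRNA, DC scrambled, CC Hes3 siRNA and CC scrambled (scr.). Points are arrays and bars are mean ± SD. Selenop in the 4 DC Hes3 siRNA arrays lies between 8.78 and 8.98, below every other array, while Gpx4 and Txnrd2 overlap in all groups. The arrays of the labels in DC were apart for 40.9% of all genes.

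Selenop encodes selenoprotein P, the secreted selenium carrier of plasma, which is made mainly in liver. Its log2 signals were 8.89, 8.98, 8.83 and 8.78 in the DC Hes3 siRNA arrays, 9.68, 9.72, 9.55 and 9.76 in the DC scrambled arrays, 9.912 and 9.996 in the CC Hes3 siRNA arrays, and 9.75 and 10.19 in the CC scrambled arrays. All 4 DC Hes3 siRNA arrays were lower than the other 8, and the DC scrambled arrays lay below the CC Hes3 siRNA arrays and just overlapped the CC scrambled arrays. The arrays of the labels in DC were apart for 40.9% of all genes, and those of DC and CC with Hes3 siRNA for 61.8%. Selenop fell by 0.81 on the log2 scale between the labels in DC (1.75-fold lower, SE 0.0841, limma adjusted p = 0.000598), and ranked 2 of 19938 genes by p. It fell by 1.08 between DC and CC with Hes3 siRNA (2.12-fold lower, SE 0.103, limma adjusted p = 4.11e-06), and by 0.29 with scrambled siRNA, which did not pass (SE 0.103, limma adjusted p = 0.104). In CC the difference between the labels was -0.01 (95% interval -0.267 to 0.239, limma adjusted p = 1). The difference between the label contrasts in DC and in CC, an interaction term, was -0.79 ± 0.146 (SE, limma adjusted p = 0.177), ranked 3 of 19938 by p, where 0 genes passed and 3471 had an unadjusted p under 0.05. With 1 array left out the interaction of Selenop ranged from -1.01, without CC scrambled array 2, to -0.57. Whether it passed depended on that array, and leaving it out leaves 1 array in its group, with no spread of its own. Without DC Hes3 siRNA arrays 1 and 5 the difference between the labels in DC was -0.80 (limma adjusted p = 0.0153), close to the value with all arrays.

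The Selenop start region is shown because it holds a forkhead (FOXO) motif, TGTTTAC, the only one in the 24 selenoprotein genes; FOXO factors are known to act on the human gene. RefSeq windows run from 250 bases before to 50 after each gene start (GRCm38.p6), and both strands were searched. At chr15:3270942-3270971, plus strand, 5′ to 3′, with the reverse-strand motif in capitals, the sequence is as follows.
Selenop: cagagggcgagGTAAACAacagggctataa
The motif was in the windows of 4.05% of all 27025 genes. It is a match of letters in a window and says nothing on binding.

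Among glutathione peroxidases, Gpx1, the cytosolic and mitochondrial enzyme that reduces hydrogen peroxide, had log2 signals of 9.56, 9.56, 9.35 and 9.02 in the DC Hes3 siRNA arrays and 9.722, 10.001, 9.871 and 9.926 in the DC scrambled arrays. The CC Hes3 siRNA arrays read 9.87 and 10.15, and the CC scrambled arrays 9.78 and 10.09. Again the 4 DC Hes3 siRNA arrays were below every other array. The arrays of the labels in DC were apart for 40.9% of all genes, and those of DC and CC with Hes3 siRNA for 61.8%. Gpx1 fell by 0.51 between the labels in DC (1.42-fold lower, SE 0.114, limma adjusted p = 0.00539) and by 0.64 between DC and CC with Hes3 siRNA (SE 0.140, limma adjusted p = 0.00326). With scrambled siRNA the DC against CC difference was -0.06 (limma adjusted p = 0.893). The interaction was -0.59 ± 0.198 (SE, limma adjusted p = 0.204). With 1 array left out it ranged from -0.74, without CC scrambled array 2, to -0.43. The call between DC and CC with Hes3 siRNA was lost without CC Hes3 siRNA array 2 (-0.50, limma adjusted p = 0.0762).

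Gpx3, the secreted peroxidase of plasma, ran the other way. It read 7.16, 7.10, 7.15 and 6.91 in the DC Hes3 siRNA arrays and 6.76, 6.90, 6.84 and 6.87 in the DC scrambled arrays, which do not overlap, as for 40.9% of all genes. Gpx3 rose by 0.24 between the labels in DC (SE 0.0659, limma adjusted p = 0.0114). Its signal was in the dimmest of the 4 parts, where 36.9% of genes rose in that comparison, and the call was lost under quantile normalization (0.07, limma adjusted p = 0.318) and without arrays 1 and 5 (0.17, limma adjusted p = 0.157). It rose by 0.21 between DC and CC with Hes3 siRNA (SE 0.0807, limma adjusted p = 0.0481), a call kept in 4 of 19 alternatives, while with scrambled siRNA the difference was 0.03. Gpx4, the enzyme that reduces lipid hydroperoxides in membranes and restrains ferroptosis, ranged from 9.45 to 9.83 in the DC Hes3 siRNA arrays and from 9.51 to 9.80 in the DC scrambled arrays. Its difference between the labels in DC was 0.01 (95% interval -0.163 to 0.189), and between DC and CC it was 0.08 with Hes3 siRNA (-0.141 to 0.291) and 0.01 with scrambled siRNA (-0.201 to 0.231).

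The Gpx1 start region is shown because it carries 2 motifs searched, a hypoxia response core (ACGTG) and an N-box (CACNAG), the motif bound by Hes repressors. It lies upstream of the start at chr9:108338830-108339079 on the plus strand. Capitals mark both motifs, the N-box on the reverse strand and so printed as CTAGTG.
Gpx1: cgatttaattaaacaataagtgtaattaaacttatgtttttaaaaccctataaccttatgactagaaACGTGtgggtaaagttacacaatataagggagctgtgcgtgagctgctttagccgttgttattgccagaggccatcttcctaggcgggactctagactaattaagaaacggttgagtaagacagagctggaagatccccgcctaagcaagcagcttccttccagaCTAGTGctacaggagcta
Neither motif is rare. ACGTG was in the windows of 7 of 24 selenoprotein genes, among them Gpx1, Selenos and Txnrd2, and of 21.8% of all genes. The N-box was in 12 of 24, among them Gpx1, Gpx3, Gpx4, Selenow and Txnrd1, and in 46.1% of all genes, and none was found in the Selenop windows.

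Txnrd1, the cytosolic thioredoxin reductase, read 9.22, 9.40, 9.22 and 9.40 in the DC Hes3 siRNA arrays, 9.45, 9.48, 9.44 and 9.46 in the DC scrambled arrays, 9.72 and 9.72 in the CC Hes3 siRNA arrays, and 9.63 and 9.92 in the CC scrambled arrays. Every DC array was lower than every CC array; DC and CC arrays were apart for 61.8% of all genes with Hes3 siRNA and for 27.9% with scrambled siRNA. Txnrd1 fell by 0.41 between DC and CC with Hes3 siRNA (SE 0.0849, limma adjusted p = 0.00253) and by 0.32 with scrambled siRNA (SE 0.0849, limma adjusted p = 0.0287). The scrambled call was lost without CC scrambled array 2 (-0.17). It was also lost without DC scrambled array 1, 2, 3 or 4, under median centring and with the replicate block. The labels in DC differed by -0.15 ± 0.0694 (SE, limma adjusted p = 0.0894), with no overlap of arrays, as for 40.9% of all genes. Txnrd2, the mitochondrial reductase, gave -0.06 between the labels in DC (95% interval -0.203 to 0.0807), -0.02 between DC and CC with Hes3 siRNA (-0.198 to 0.150) and -0.04 with scrambled siRNA (-0.212 to 0.136).

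The Txnrd1 start region is shown because this gene is a known target of the oxidative stress factor NRF2. An antioxidant response core (TGACNNNGC, here on the reverse strand) and an N-box are in capitals, at chr10:82858956-82859205, plus strand, upstream of the start.
Txnrd1: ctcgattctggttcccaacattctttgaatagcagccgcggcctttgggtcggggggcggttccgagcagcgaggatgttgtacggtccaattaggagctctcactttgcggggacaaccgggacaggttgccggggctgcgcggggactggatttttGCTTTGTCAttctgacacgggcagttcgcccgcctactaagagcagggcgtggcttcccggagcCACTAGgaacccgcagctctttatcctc
The core was in the windows of 2 of 24 selenoprotein genes, Txnrd1 and Selenok, and of 14% of all genes.

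Selenof and Selenos are ER selenoproteins. Selenof binds Uggt1, which checks glycoprotein folding, and Selenos sits in the ER membrane with the Derlins and Vcp, which export misfolded proteins. Selenos read 7.63, 7.76, 7.71 and 8.02 in the DC Hes3 siRNA arrays, 7.95, 7.92, 7.99 and 7.84 in the DC scrambled arrays, 8.47 and 8.52 in the CC Hes3 siRNA arrays, and 8.41 and 8.66 in the CC scrambled arrays. All 8 DC arrays were lower than the 4 CC arrays. DC and CC arrays were apart for 61.8% of all genes with Hes3 siRNA and for 27.9% with scrambled siRNA. Selenos fell by 0.72 between DC and CC with Hes3 siRNA (SE 0.0996, limma adjusted p = 0.000103) and by 0.61 with scrambled siRNA (SE 0.0996, limma adjusted p = 0.000974). Its difference between the labels in DC, -0.15, did not pass (limma adjusted p = 0.134).

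Selenof read 10.73, 10.91, 10.87 and 10.87 in the DC Hes3 siRNA arrays, 11.05, 11.03, 11.02 and 11.02 in the DC scrambled arrays, 11.21 and 11.40 in the CC Hes3 siRNA arrays, and 11.15 and 11.42 in the CC scrambled arrays. The 3 levels were stepped, with DC Hes3 siRNA lowest and both CC groups highest. Selenof fell by 0.45 between DC and CC with Hes3 siRNA (SE 0.0840, limma adjusted p = 0.00107) and by 0.18 between the labels in DC (SE 0.0686, limma adjusted p = 0.0383). With scrambled siRNA the DC against CC difference was -0.25 ± 0.0840 (SE, limma adjusted p = 0.0814). Without arrays 1 and 5 the difference between the labels in DC was -0.14 (limma adjusted p = 0.247), and under quantile normalization it was -0.02 (limma adjusted p = 0.809).

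Selenow, a small cytosolic protein with a thioredoxin-like fold, ranged from 9.39 to 10.48 in the DC Hes3 siRNA arrays and from 10.22 to 10.58 in the DC scrambled arrays. The difference was -0.35 ± 0.168 (SE, limma adjusted p = 0.0895). Array 7 was the lowest of the DC Hes3 siRNA arrays, and the other 3 ranged from 10.17 to 10.48. The difference was -0.13 without array 7 (limma adjusted p = 0.292), and -0.50 without array 2, where it passed (0.0223). For DC against CC with Hes3 siRNA it was -0.44 ± 0.205 (SE, limma adjusted p = 0.0955).

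The other 15 selenoproteins complete the family. Of all 24, 8 fell and 2 rose between the labels in DC, 10 fell and 2 rose between DC and CC with Hes3 siRNA, 4 fell and 0 rose with scrambled siRNA, and 0 passed between the labels in CC. Of all genes, 18.3% fell and 28.9% rose between the labels in DC, 47.2% in all. Between DC and CC, 18.8% fell and 21.2% rose with Hes3 siRNA, and 5.45% and 3.09% with scrambled siRNA. Medians over the 24 were -0.10, -0.09, -0.02 and -0.01 in the same order, against 0.06, 0.09, 0.02 and 0.02 over all genes. Outside the 9, the genes that fell between the labels in DC were Selenot (-0.36 ± 0.0762 SE, limma adjusted p = 0.00434), Selenom (-0.41 ± 0.0923, 0.00533), Selenon (-0.23, 0.0210), Selenok (-0.43, 0.0246) and Selenoi (-0.17, 0.0464), the enzyme that makes phosphatidylethanolamine. Selenoi lost the call under quantile and cyclic loess normalization, with the replicate block, and without DC Hes3 siRNA arrays 1 and 5, singly or together. It was also lost without DC scrambled array 1, 2, 3 or 4. Dio3, which inactivates thyroid hormone, rose by 0.42 (SE 0.0874, limma adjusted p = 0.0043). Its signal was in the dimmest of the 4 parts, where 36.9% of genes rose in that comparison. Dio3 kept the call in 18 of 19 alternatives and lost it without DC Hes3 siRNA arrays 1 and 5 together. Between DC and CC with Hes3 siRNA, Selenom fell by 0.88 (limma adjusted p = 5.08e-05), Selenoi by 0.73 (1.79e-05), Selenok by 0.63 (0.0129) and Selenot by 0.53 (0.000714), and Dio3 rose by 0.30 (0.0397). Selenok lost this call without CC Hes3 siRNA array 2 (-0.35, limma adjusted p = 0.229), and Dio3 kept it in 8 of 19 alternatives (0.0973 to 0.364). With scrambled siRNA, Selenom (-0.59, limma adjusted p = 0.00348) and Selenoi (-0.55, 0.000538) passed as well.

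Selenof, Selenos, Selenok, Selenom, Selenon, Selenot and Dio2, the deiodinase that activates thyroid hormone, are the 7 ER-resident members of the family. They were put together after their values were seen, and the group carries no test. In DC against CC with Hes3 siRNA 6 of the 7 fell (median -0.53), where 18.8% of all genes fell, and Dio2 gave 0.17 without passing; of the other 17 selenoproteins, 4 fell and 2 rose. With scrambled siRNA 2 of the 7 and 2 of the other 17 fell, where 5.45% of all genes fell. For the labels in DC 5 of the 7 fell (median -0.23), where 18.3% of all genes fell, and 3 of the other 17 fell with 2 higher. Brightness differed between these groups: 1 of the 7 and 5 of the other 17 lie in the dimmest of the 4 parts, and 3 of the 7 and 6 of the other 17 in the brightest. The 5 called between the labels in DC became 1 without DC Hes3 siRNA arrays 1 and 5 (Selenot, -0.41, limma adjusted p = 0.0467), 2 without array 1, 5 or DC scrambled array 4, 3 under quantile normalization, 2 under cyclic loess and 0 with the replicate block. In DC against CC with Hes3 siRNA 4 of the 7 passed without arrays 1 and 5.

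**Figure D2:**
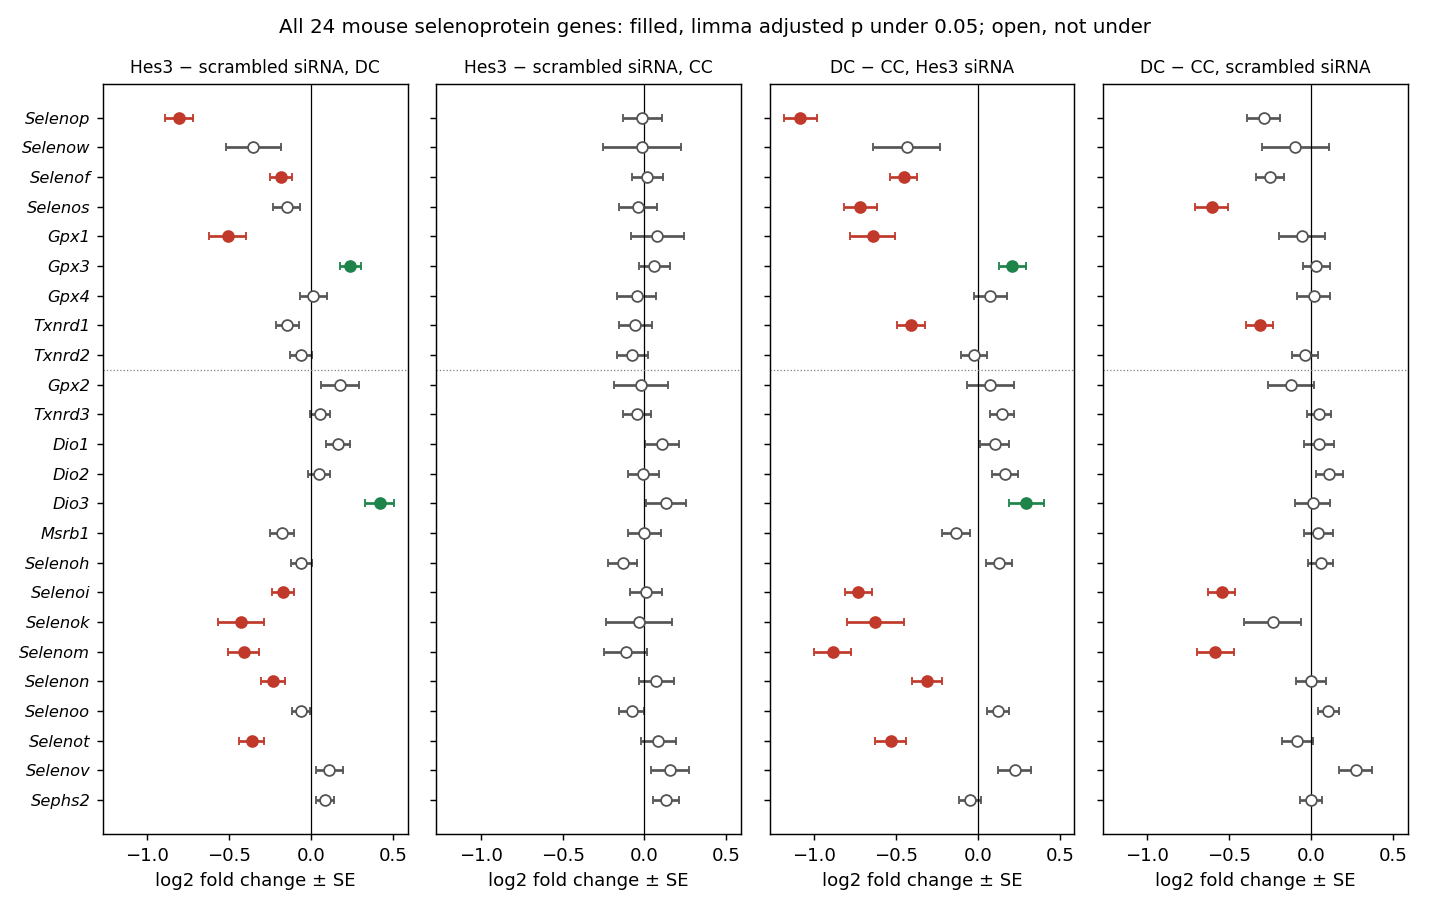
Log2 fold change ± SE of all 24 selenoprotein genes in 4 comparisons; the dotted line divides the 9 genes described from the other 15. Filled points passed limma adjusted p under 0.05 (red lower, green higher) and open points did not; the panel of siRNA labels in CC has no filled point, and that of DC against CC with Hes3 siRNA has 10 lower and 2 higher.

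Brightness moved with these results. Between the labels in DC, 40.9% of genes in the brightest of the 4 parts were called lower, and 6.2% of those in the second dimmest, and 6 of the 9 genes (Selenop, Selenow, Selenof, Gpx1, Gpx4 and Txnrd1) lie in the brightest part. Between DC and CC with Hes3 siRNA 44.5% of the brightest part were lower. Selenos, which fell by 0.72 there, averaged 8.07, near the upper edge (8.11) of the second dimmest part. In that comparison 5.3% of genes fell in the second dimmest part and 24.6% in the next brighter part. The plot of changes by signal shows Selenop below the 5th percentile of genes of like signal in both comparisons, Gpx1 near that limit between the labels in DC and within the range between DC and CC, and Selenof, Selenow and Txnrd1 within it. Selenos lies below that limit between DC and CC with Hes3 siRNA.

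**Figure D3:**
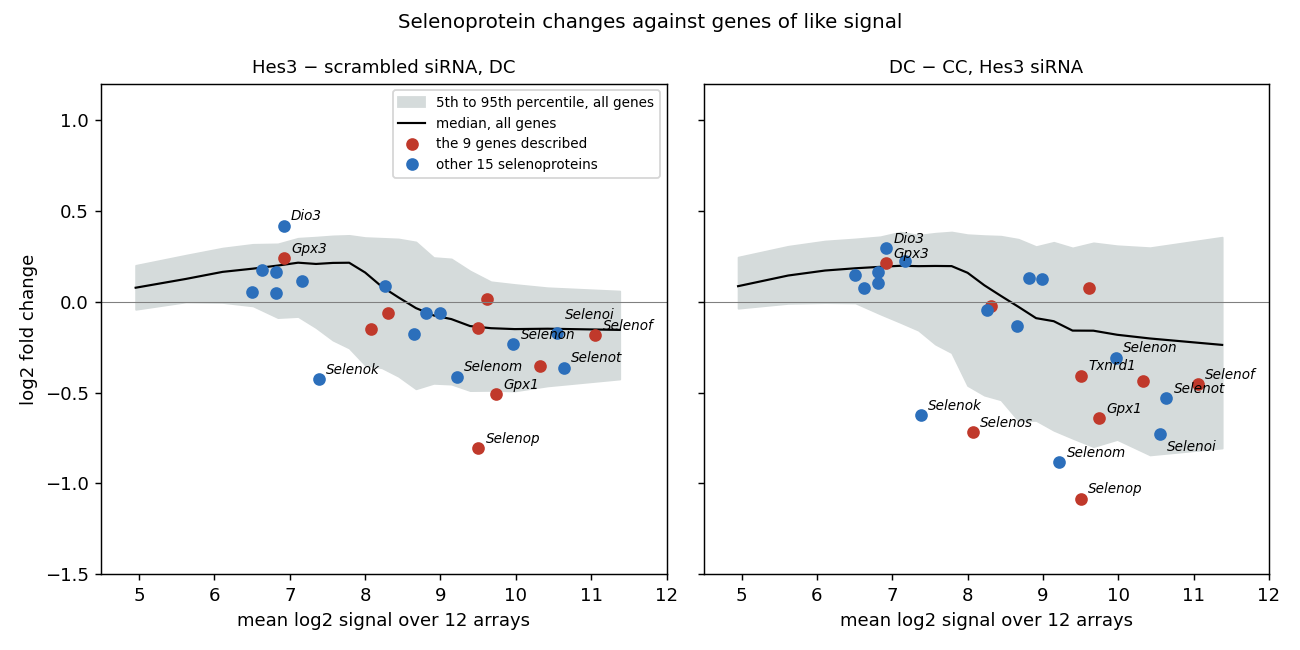
Log2 fold change against mean log2 signal over 12 arrays for the 24 selenoproteins (red, the 9 genes described; blue, the other 15), with the median and the 5th to 95th percentile of all genes in bins of signal. The left panel is Hes3 siRNA minus scrambled in DC and the right panel DC minus CC with Hes3 siRNA; the median of all genes is above 0 at low signal and below 0 at high signal, and Selenop lies below the grey band in both, at -0.81 and -1.08.

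The genes that make selenocysteine, supply selenium or work beside selenoproteins were read from lists chosen with earlier results of these data known. Of 13 genes of selenocysteine synthesis and insertion, 6 fell and 0 rose between the labels in DC (18.3% and 28.9% of all genes), 5 fell between DC and CC with Hes3 siRNA (18.8%), and 0 passed with scrambled siRNA. Of these 13, 5 lie in the brightest part, where 40.9% of genes fell between the labels in DC, and 7 in the next, where 24.7% fell. Sephs1, related to the selenophosphate synthetase Sephs2, fell by 0.37 between the labels in DC (limma adjusted p = 0.00361) and by 0.38 between DC and CC with Hes3 siRNA (0.00484). Ncl (-0.43, limma adjusted p = 0.0167) and Eif4a3 (-0.36, 0.0193), which bind SECIS elements among other RNAs, fell between the labels in DC, and kept the call in 13 and 17 of 20 alternatives. Pstk (-0.25), Secisbp2l (-0.20) and Trnau1ap (-0.15) also fell between the labels in DC. Secisbp2 (0.09), Eefsec (-0.03), Sepsecs (-0.10), Sephs2 (0.08), Scly (-0.01), Rpl30 (0.01) and Trit1 (-0.04) did not pass between the labels in DC. Scly, which releases selenium from selenocysteine, fell by 0.29 between DC and CC with Hes3 siRNA (limma adjusted p = 0.0262), but gave -0.07 under quantile normalization (0.583). Of 9 genes of uptake and supply, 3 rose and 3 fell in DC against CC with Hes3 siRNA, and 1 rose and 2 fell with scrambled siRNA. Of all genes, 21.2% rose and 18.8% fell with Hes3 siRNA, and 3.09% rose and 5.45% fell with scrambled siRNA. Slc7a11, the cystine transporter, fell by 1.33 with Hes3 siRNA (SE 0.0957, limma adjusted p = 4.43e-07) and by 1.02 with scrambled siRNA (SE 0.0957, 7.48e-06). Lrp1, an endocytic receptor, rose by 0.67 with Hes3 siRNA (limma adjusted p = 1.67e-05) and by 0.59 with scrambled siRNA (0.000144).

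Of 22 measured glutathione and thioredoxin genes of 24 listed, 11 fell and 1 rose between DC and CC with Hes3 siRNA (18.8% and 21.2% of all genes), 2 fell with scrambled siRNA (5.45%), and 8 fell and 1 rose between the labels in DC (18.3% and 28.9%). Of these 22, 11 lie in the brightest part, where 44.5% of genes fell between DC and CC with Hes3 siRNA. Txnip, the thioredoxin inhibitor, fell by 1.18 with Hes3 siRNA (SE 0.126, limma adjusted p = 1.06e-05) and by 1.04 with scrambled siRNA (SE 0.126, 8.72e-05). The peroxiredoxins Prdx1 (-0.73, limma adjusted p = 0.00262) and Prdx4 (-0.66, 0.00102) and the mitochondrial thioredoxin Txn2 (-0.56, 0.000392) fell in DC against CC with Hes3 siRNA. Glrx, a glutaredoxin, fell by 0.66 between the labels in DC (limma adjusted p = 0.00311), and Gclm, a subunit of the enzyme that starts glutathione synthesis, by 0.49 (0.00714). Of 8 measured ER partners of Selenos and Selenof, all in the brightest part, 4 fell in DC against CC with Hes3 siRNA and 2 with scrambled siRNA. In that part 44.5% of genes fell with Hes3 siRNA and 11.9% with scrambled siRNA. Derl3 fell by 0.76 with Hes3 siRNA (SE 0.202, limma adjusted p = 0.00999) and by 1.08 with scrambled siRNA (SE 0.202, 0.0026). Derl1 fell by 0.47 with Hes3 siRNA (limma adjusted p = 0.000487) and by 0.28 with scrambled siRNA (0.0344), the second a call kept in 11 of 20 alternatives. Uggt1 fell by 0.26 with Hes3 siRNA (limma adjusted p = 0.0237), but gave -0.03 under quantile normalization (0.814) and -0.004 under cyclic loess (0.98).

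**Figure D4:**
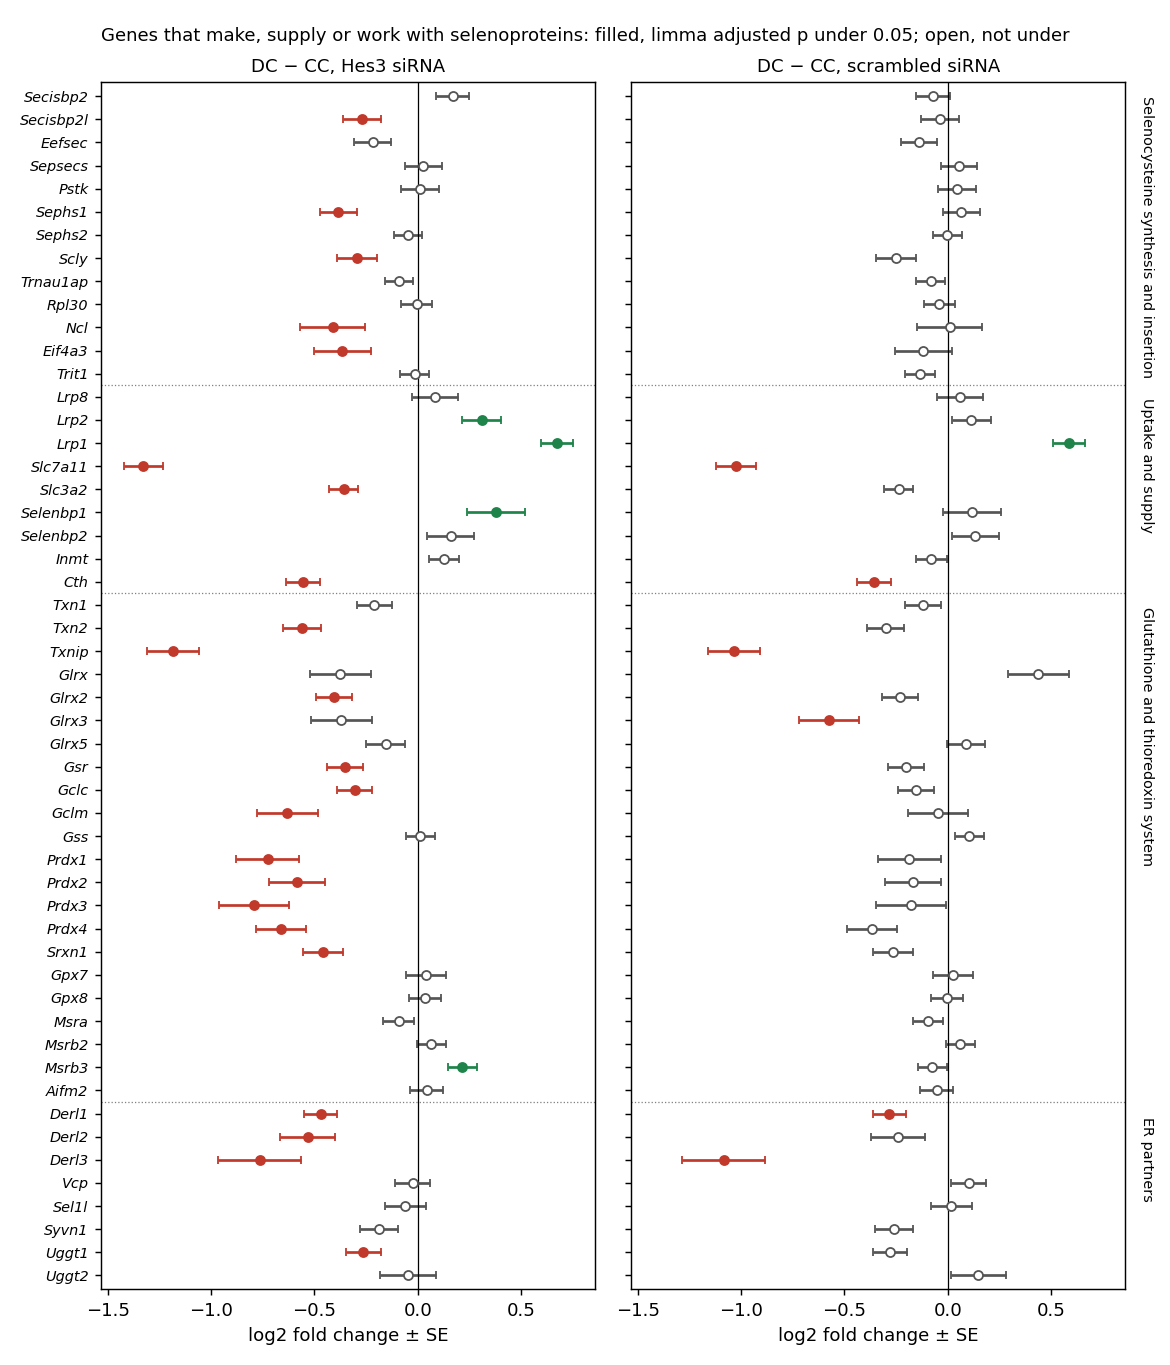
Log2 fold change ± SE for genes of selenocysteine synthesis and insertion, uptake and supply, the glutathione and thioredoxin system, and ER partners, in DC minus CC with Hes3 siRNA (left) and scrambled siRNA (right). Filled points passed limma adjusted p under 0.05 (red lower, green higher); Slc7a11 and Txnip are filled on the lower side in both panels, and Lrp1 on the higher side.

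The genes most like each of the 9 over the 12 arrays are given as a description by Pearson r, since the arrays share 4 groups. Selenop was most like Glrb (0.992), which encodes a glycine receptor subunit, Glb1l2 (0.983) and Xk (0.982). Selenos was most like Gramd3 (0.991), Selenof like Phf10 (0.99), Txnrd1 like B4gat1 (0.987) and Gpx3 like Thbs4 (0.984). Gpx1 was most like Zdhhc3 (0.972) and Rbms2 (0.964), and Rbms2 was also nearest to Selenow (0.905). Gpx4 (Maf1, 0.899), Txnrd2 (Trim56, 0.931) and Selenow, with no group difference past the test, had less alike nearest genes.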

How the data were processed

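The authors' deposited table holds 1 log2 value per probe set and array for 35556 probe sets on 12 arrays (3.94 to 14.4). Log2 is read from the values; the authors' background correction, summarization and normalization are not given in the sources used here. All 12 columns were used, and raw signals were not analysed here. The platform annotation of 2016 gave 21789 probe sets 1 gene symbol, 1621 several and 12146 none; 21698 matched the gene table by Entrez identifier. The probe set with the highest mean stood for a gene, with no filter on dim genes, which left 19938 genes.

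Groups came from the titles. Differences came from limma (version 3.58.1, R 4.3.3), by lmFit and then eBayes (1 mean per group, all 12 arrays, 8 residual and 7.62 prior degrees of freedom, tested on simulated data), with two-sided p adjusted by Benjamini-Hochberg over all genes in each of 5 contrasts at 0.05. Precision is limited by the number of arrays. The members, gene lists and alternatives were chosen with earlier results of these data known, and the values are not independent support. Named were the 9 genes and Hes3 in every comparison, and the 3 genes most like each of the 9. By smallest p, up to 4 other selenoproteins a direction and up to 4 of each list past the threshold were named. Where none passed, the 2 nearest were named. The text prints part of them. Selenoi and the remaining selenocysteine synthesis and insertion genes between the labels in DC, and Gcg and Sst, were added after values were seen. Prdx5 and Prdx6, among other listed genes, were not analysed here. Alternatives were quantile, median and cyclic loess normalization, a filter on dim genes, the mean of probe sets, a fit on the arrays compared, replicate blocks, DC Hes3 siRNA arrays 1 and 5 left out, and each array left out. Promoter windows are RefSeq's (GRCm38.p6), and 24 of 24 selenoprotein genes matched.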

Additional observations from a re-analysis of the deposited data

How the results depend on the processing

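Selenop kept its call between the labels in DC in 20 of 20 alternatives (log2 fold change -0.88 to -0.69, limma adjusted p 2.96e-05 to 0.0329) and between DC and CC with Hes3 siRNA in 20 of 20 (-1.15 to -0.94), as did Selenos in both DC against CC comparisons, and Selenof and Txnrd1 between DC and CC with Hes3 siRNA. Gpx1 kept its call between the labels in DC in 19 of 20 and Gpx3 in 15 of 19; Gpx3 between DC and CC with Hes3 siRNA kept it in only 4 of 19, Selenof between the labels in DC in 10 of 20 and Txnrd1 with scrambled siRNA in 13 of 20. The causes were not tested.

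Genes called between the labels in DC numbered 9408 (5769 higher, 3639 lower), and 4707 under quantile normalization (2387 higher, 2320 lower), 4111 under cyclic loess (1596, 2515), 8338 under median centring (3165, 5173), 5436 without dim genes, 331 without arrays 1 and 5, and 5754 to 10476 with 1 array left out. The 10 selenoproteins called there became 6 under quantile normalization, 5 under cyclic loess, 3 without arrays 1 and 5, and 6 to 12 with 1 array left out (6 without Hes3 siRNA array 1 or 5 or scrambled array 4). Between DC and CC with Hes3 siRNA, 7986 genes (4231 higher, 3755 lower) became 5206 under cyclic loess (2249, 2957), 6590 under median centring (2205, 4385), 3631 without arrays 1 and 5, and 2357 to 9516 with 1 array left out, and 12 selenoproteins became 7 to 13, lowest without CC Hes3 siRNA array 2. With scrambled siRNA 1702 genes (616 higher, 1086 lower) were 1733 under quantile normalization (826, 907) and 742 to 2364 with 1 array left out, and 4 selenoproteins became 2 to 7, with 2 without CC scrambled array 2. For the interaction 0 genes and 0 selenoproteins became up to 2056 and 3, both without CC scrambled array 2.

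Same-numbered arrays correlated from -0.441 to 0.536 after group means were removed. With 2 arrays in a CC group, what is left of them is equal and opposite. The correlations therefore cannot decide whether same-numbered samples were paired, and the labels give only a number. With the replicate block, 620 genes and 2 selenoproteins were called between the labels in DC, 804 genes between DC and CC with scrambled siRNA, and 4051 with Hes3 siRNA; Gpx1 between the labels in DC gave -0.30 (limma adjusted p = 0.0956).

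Signs turned for values that did not pass, most of them near 0; the exceptions were Glrx3 in CC (-0.36) and Hes3 (0.20 in CC and 0.15 in DC). Between the labels in CC, under cyclic loess Selenop gave 0.0062 and Selenof -0.0038, and under quantile normalization Selenof gave -0.015. In the same comparison, with 1 array left out, the ranges were -0.0057 to 0.406 for Hes3, -0.2352 to 0.2069 for Selenop, -0.1881 to 0.1598 for Selenow, -0.1137 to 0.1493 for Selenof, -0.1632 to 0.0844 for Selenos, -0.0806 to 0.2351 for Gpx1, -0.007 to 0.126 for Gpx3, -0.1258 to 0.0305 for Gpx4, -0.2019 to 0.0916 for Txnrd1 and -0.728 to 0.0034 for Glrx3. Between the labels in DC, Hes3 gave -0.0258 under quantile normalization and -0.0504 under cyclic loess, Gpx4 gave -0.0608 under median centring, -0.0656 without arrays 1 and 5 and -0.053 to 0.0726 with 1 array left out, and Txnrd2 gave 0.0218 without arrays 1 and 5. Between DC and CC with scrambled siRNA, Gpx3 gave -0.0186 under quantile normalization, -0.0207 under cyclic loess and -0.0346 to 0.0984 with 1 array left out, and Gpx4 gave -0.0835 with the replicate block and -0.0436 to 0.0545 with 1 array left out. Selenow gave -0.27 to 0.0779 there with 1 array left out, Gpx1 -0.2142 to 0.1015 and Txnrd2 -0.1089 to 0.0325. With Hes3 siRNA, Gpx4 gave -0.0031 without arrays 1 and 5 and -0.0028 to 0.1535 with 1 array left out, and Txnrd2 gave 0.0191 with the replicate block, 0.0591 without arrays 1 and 5 and -0.0567 to 0.0341 with 1 array left out. For the interaction, Selenos gave 0.0021 without arrays 1 and 5 and -0.2335 to 0.0141 with 1 array left out. Gpx4 gave -0.0054 under median centring, -0.0179 without arrays 1 and 5 and -0.0176 to 0.1387 with 1 array left out. Txnrd1 gave 0.0364 under quantile normalization, 0.0038 under cyclic loess and -0.2381 to 0.0554 with 1 array left out, and Txnrd2 gave -0.04, -0.0516 and -0.0509 under quantile, median and cyclic loess normalization and -0.0565 to 0.085 with 1 array left out.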
